A study of Homo sapiens with 8 samples.

Results

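The genes described here encode PU.1 and its relatives and partners in blood cells: SPI1, which encodes PU.1, the related ETS factor genes SPIB and SPIC, and 6 interferon regulatory factor (IRF) genes, IRF1, IRF2, IRF4, IRF5, IRF7 and IRF8. A binding peak was counted for a gene when its summit, the point of highest signal, lay in the gene body or within 20 kb of either end on the hg19 assembly. By this rule 288 of the 235023 peaks in 4 peak lists belonged to the 9 genes, and none was counted for more than 1 gene.

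The peaks come from ChIP-seq of U937, a human line with monocytic features that was established from a histiocytic lymphoma. Either AML1-ETO or ETO2-GLIS2, each with an HA tag at its N terminus, was produced from a doxycycline-inducible retroviral vector in a stable line that was a single clone, and both lines were given 5 µg/ml doxycycline for 12 or 48 h. Chromatin bound to the tagged protein was collected with anti-HA beads, so the native RUNX1, ETO-family and GLIS2 proteins were not measured. Of 8 libraries, 4 were ChIP and 4 were input, with 1 of each per protein and time. Differences between the proteins therefore cannot be told apart from differences between clones, nor 48 h and 12 h from differences between libraries, and no test between conditions was made. Peak lists carry no expression values, so the identity of the cells was not checked. The lists held 70833 (AML1-ETO, 12 h), 105769 (AML1-ETO, 48 h), 28325 (ETO2-GLIS2, 12 h) and 30096 (ETO2-GLIS2, 48 h) peaks. By the study's read totals the ETO2-GLIS2 library at 48 h had the fewest reads of the ChIP libraries, and the part of depth in list length was not tested.

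PU.1 is an ETS-family transcription factor that opens chromatin at the genes of monocytes, macrophages and B cells, and these lineages depend on its level. IRF4 and IRF8 bind poorly alone and are held by PU.1 or SPIB on joint ETS-IRF elements, while IRF1, IRF2, IRF5 and IRF7 act on interferon response elements, IRF2 often as an antagonist of IRF1. Transcription of SPI1 is set by a promoter at the gene start, a distant upstream element and a promoter inside the gene that drives antisense RNA. The files give no coordinates for these elements, so peaks are located below by their distance from the start site alone. AML1-ETO carries the Runt DNA-binding domain of RUNX1, and ETO2-GLIS2 carries the zinc fingers of GLIS2.

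Peaks were ranked within their own list by the −log10 q of the peak caller, and the rank is given as a percent of the list, so that a low percent is a strong peak. Ranks compare peaks within a list. A percent favours the longer AML1-ETO lists when the proteins are set side by side, because a longer list adds weak peaks at its end. Distances run from the main start site, the start of the gene's canonical transcript in GENCODE release 44 on GRCh37, and are positive in the direction of transcription.

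8 of the 9 genes had a peak in every list. The exception was SPIC (chr12:101869114-101880775), a factor of splenic red pulp macrophages, which had no listed peak in any of the 4 lists. Over 20136 protein-coding genes the share with a peak by the same rule was 77.7% for AML1-ETO at 12 h, 80.4% for AML1-ETO at 48 h, 66.4% for ETO2-GLIS2 at 12 h and 66.1% for ETO2-GLIS2 at 48 h. The same 8 genes had peaks of both proteins at each time, against 64.3% of protein-coding genes at 12 h and 65.4% at 48 h. A peak in all 4 lists was found at 59.8% of these genes, and none in any list at 16.6%, so presence of a peak alone did not set the PU.1 and IRF genes apart. A list holds only peaks that passed the caller's threshold, and absence from it does not show that the protein was absent.

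The genes held 82, 110, 48 and 48 peaks in the lists of AML1-ETO at 12 h and 48 h and ETO2-GLIS2 at 12 h and 48 h. In that order SPI1 had 10, 15, 9 and 10 peaks, and SPIB, the PU.1 relative of B cells and plasmacytoid dendritic cells, had 1, 7, 3 and 2. IRF1 had 12, 19, 10 and 11, IRF2 had 10, 18, 3 and 2, and IRF4 had 7, 8, 2 and 2. IRF5 had 8, 8, 9 and 6, IRF7 had 15, 17, 6 and 7, and IRF8 had 19, 18, 6 and 8. At 12 h AML1-ETO peaks outnumbered ETO2-GLIS2 peaks most at IRF2, IRF4, IRF7 and IRF8, whereas SPI1, IRF1 and IRF5 had similar numbers for both proteins. The order was not the same at 48 h, when SPIB had 7 and 2. The whole lists held 70833 and 28325 peaks at 12 h and 105769 and 30096 at 48 h. A larger number for AML1-ETO was therefore not read as a trait of a gene.

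**Figure D1:**
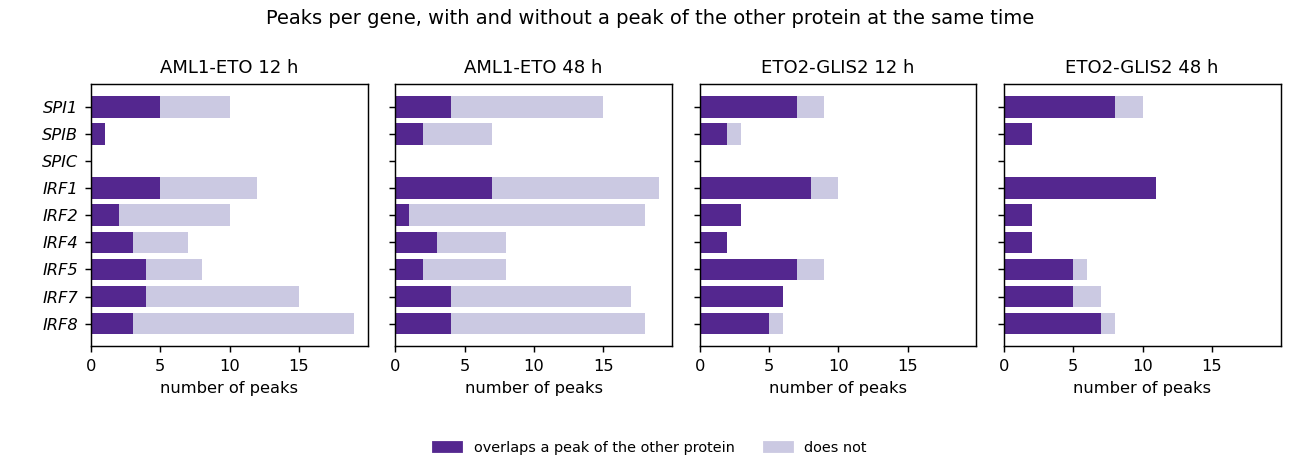
Number of peaks at each gene in the 4 lists, split into peaks that overlapped a peak of the other protein at the same time by at least 1 bp (dark) and those that did not (light). SPIC has no bar, IRF2 has 18 peaks for AML1-ETO at 48 h and 2 for ETO2-GLIS2 at 48 h, and the 11 ETO2-GLIS2 peaks at IRF1 at 48 h all overlap AML1-ETO peaks.

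A peak in the best 5% of its list lay at 3 of the 9 genes for AML1-ETO at 12 h (21.0% of all protein-coding genes), at 6 for AML1-ETO at 48 h (32.2%), at 4 for ETO2-GLIS2 at 12 h (9.39%) and at 3 for ETO2-GLIS2 at 48 h (10.5%). SPI1, IRF1 and IRF5 reached the best 5% in all 4 lists, which 5.83% of protein-coding genes did. For the best 1% the counts were 2, 1, 2 and 2 genes against 4.56%, 7.85%, 2.18% and 2.64% of all genes. IRF5 was there in all 4 lists, as were 0.849% of all genes, and SPI1 in all but the AML1-ETO list at 48 h, where it ranked at 1.06%. Ranked by fold enrichment instead, SPI1 was also there in all 4 lists (0.726%, 0.851%, 0.452% and 0.299%). With 9 genes, 1 gene moves a share by 11.1 percentage points, so these counts describe the genes and no more.

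**Figure D2:**
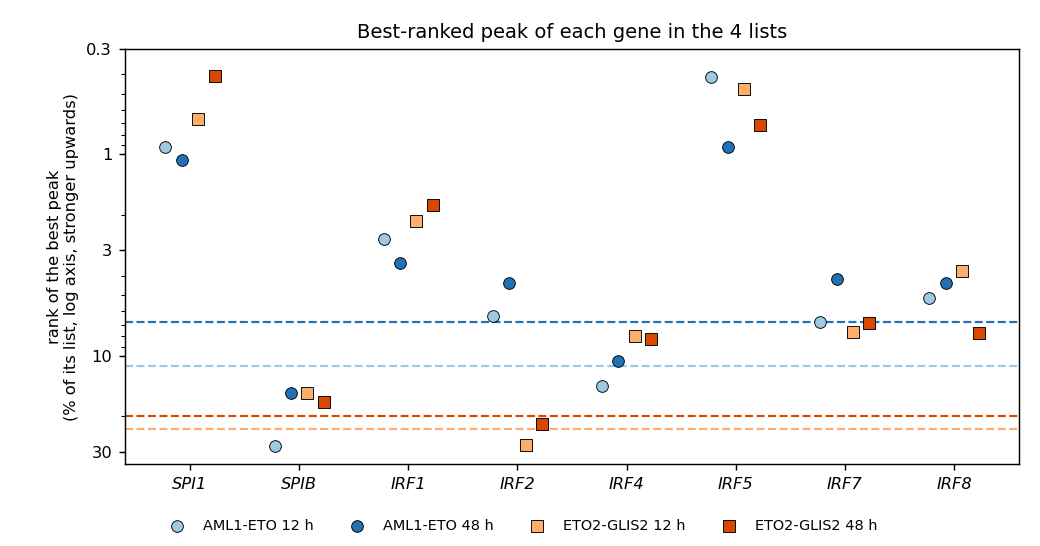
Rank of the strongest peak of each gene in each list, in percent of the list on a log axis with stronger peaks higher, for AML1-ETO (circles) and ETO2-GLIS2 (squares). The dashed lines mark the median over all protein-coding genes with a peak in that list. SPI1 and IRF5 lie near or above 1% in every list, and IRF2 is the gene whose AML1-ETO points (6.31% and 4.34%) and ETO2-GLIS2 points (27.7% and 21.9%) lie furthest apart.

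SPI1 (ENSG00000066336, minus strand, chr11:47376411-47400098) carried some of the strongest peaks of both proteins. Its best peak ranked 652 of 70833 for AML1-ETO at 12 h (0.920%), 1122 of 105769 at 48 h (1.06%), 189 of 28325 for ETO2-GLIS2 at 12 h (0.667%) and 123 of 30096 at 48 h (0.409%). A better-ranked best peak was found at 4.29%, 8.32%, 1.49% and 1.08% of protein-coding genes. Peaks covered 31.0% and 43.0% of the 63688 bp window around the gene for AML1-ETO at 12 h and 48 h, and 24.4% and 25.1% for ETO2-GLIS2. A higher covered share was seen at 1.22% and 3.52% of protein-coding genes for AML1-ETO and at 0.283% and 0.874% for ETO2-GLIS2. The median covered share of the 9 genes was 12.4%, 20.8%, 5.57% and 6.03%, and that of all protein-coding genes was 2.26%, 4.46%, 0.681% and 0.759%.

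Peaks in all 4 lists fell in 3 regions of SPI1: in intron 3, over the gene start and far upstream. The sequences around a summit in intron 3 and upstream are shown because these regions hold the best SPI1 peak of ETO2-GLIS2 and of AML1-ETO. Each is a 200 bp window of GRCh37 centred on the summit and written on the strand of SPI1, with matches to the short patterns listed further on in capitals.
SPI1 intron 3, ETO2-GLIS2 48 h, chr11:47381275-47381474, minus strand: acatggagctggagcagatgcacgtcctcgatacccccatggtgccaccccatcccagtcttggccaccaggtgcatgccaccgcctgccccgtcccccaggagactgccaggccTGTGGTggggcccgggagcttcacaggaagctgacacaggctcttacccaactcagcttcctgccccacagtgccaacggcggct
SPI1 upstream, AML1-ETO 12 h, chr11:47416347-47416546, minus strand: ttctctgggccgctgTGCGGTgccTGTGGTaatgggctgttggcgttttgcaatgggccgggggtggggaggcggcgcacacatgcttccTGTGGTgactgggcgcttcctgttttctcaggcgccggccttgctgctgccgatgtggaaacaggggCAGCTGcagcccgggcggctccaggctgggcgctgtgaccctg
The intron 3 window holds 1 Runt match (TGTGGT). The upstream window holds 3 Runt matches (TGTGGT or TGCGGT) and the E-box CAGCTG, the core bound by E proteins.

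In intron 3 (chr11:47378992-47384071) the 4 summits fell within 24 bp of each other, at 18730 and 18747 bp from the start for AML1-ETO at 12 h and 48 h and at 18723 bp for ETO2-GLIS2 at both times. This was the best SPI1 peak of ETO2-GLIS2, at 0.667% and 0.409% of its lists, with a fold enrichment over the local background of 92.6 and 118. For AML1-ETO it ranked at 1.95% and 1.56%, with a fold enrichment of 33.4 and 39.9. The peaks were 3184 and 5080 bp wide for AML1-ETO and 2940 and 1989 bp wide for ETO2-GLIS2. Fold enrichment was compared only inside a list.

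At the gene start (chr11:47394559-47401406) the main start site lay inside a peak in all 4 lists, but the proteins had their summits at different places. ETO2-GLIS2 peaked just upstream of the start, at −152 bp (12 h) and −125 bp (48 h), at 1.59% and 2.53% of its lists. AML1-ETO peaked inside intron 1, at 1465 and 1691 bp, at 9.95% and 6.36% of its lists. The summits of the proteins were 1617 bp apart at 12 h and 1816 bp apart at 48 h, while those of the same protein moved by 226 bp (AML1-ETO) and 27 bp (ETO2-GLIS2) between times. The peaks were broad, at 5919, 6426, 4060 and 4682 bp, and each of them spanned the summits of both proteins. A smaller AML1-ETO peak of 163 bp at −1208 bp, at 57.6% of the list at 12 h, had the summit nearest to the start site in that list.

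Far upstream (chr11:47408409-47418904) AML1-ETO had a wide peak, of 8698 bp at 12 h and 10496 bp at 48 h, with its summit at −16349 and −16329 bp. It was the best SPI1 peak of AML1-ETO, at 0.920% and 1.06% of the lists, with a fold enrichment of 45.0 and 46.2. ETO2-GLIS2 had a pair of narrower peaks inside the same stretch, with a weak peak between them. At 12 h each protein also had a weaker peak farther out, at −18011 bp for AML1-ETO (272 bp wide, 31.8%) and at −18076 bp for ETO2-GLIS2 (81.6%). The farther peak of the pair lay at −16871 and −16864 bp, was 3331 and 3367 bp wide and ranked at 6.38% and 5.91%. The nearer one lay at −9803 bp at 12 h (3402 bp wide, 7.04%) and at −12682 bp at 48 h (3970 bp wide, 8.69%). The summits of the wide AML1-ETO peak and of the farther ETO2-GLIS2 peak of the pair were within 1 kb of an annotated start site of the antisense gene SLC39A13-AS1. They were 522 and 535 bp apart. At both times AML1-ETO thus ranked the upstream region above intron 3 and the gene start, and ETO2-GLIS2 ranked intron 3 first, the gene start next and the upstream region last.

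The other SPI1 peaks were weak. They numbered 7 for AML1-ETO at 12 h, ranked from 31.8% to 78.9%, and 12 at 48 h, from 17.2% to 74.8%. ETO2-GLIS2 had 5 such peaks at 12 h, from 44.7% to 90.6%, and 6 at 48 h, from 29.1% to 73.1%. Among these was the only region at the 9 genes with ETO2-GLIS2 peaks at both times and no AML1-ETO peak, in intron 4 at 22425 bp (72.4%) and 22707 bp (73.1%). Both lie among the weaker peaks of their lists.

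**Figure D3:**
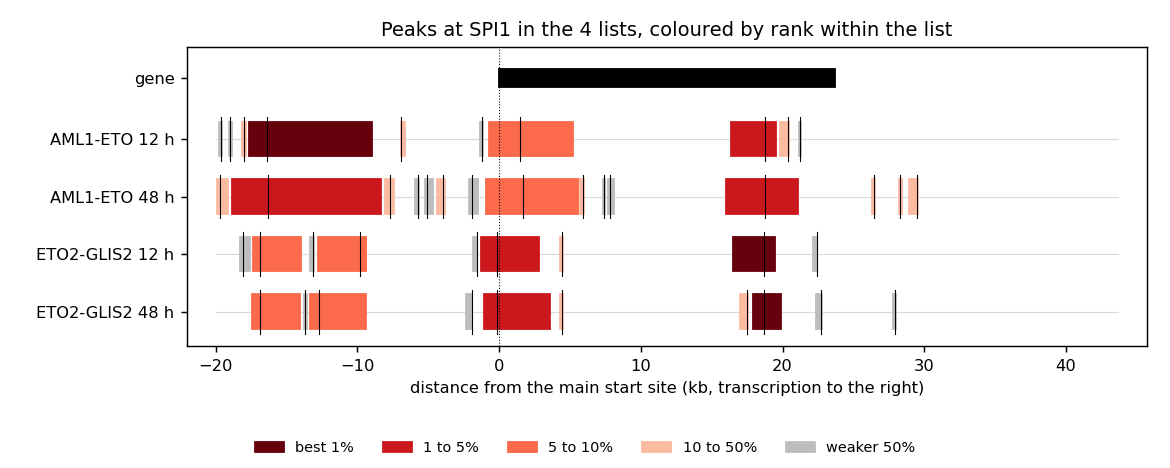
Peaks at SPI1 by their distance from the main start site in kb, with 1 row per list, the gene as a black bar and each peak as a box coloured by its rank in percent of the list. The thin black lines are summits, which line up in intron 3 (18723 to 18747 bp) and are split at the gene start (−152 and −125 bp against 1465 and 1691 bp).

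SPIB (ENSG00000269404, chr19:50922195-50934571) had only middling peaks. Its best peak lay at −3071, −3067, −2981 and −2980 bp in the lists of AML1-ETO at 12 h and 48 h and ETO2-GLIS2 at 12 h and 48 h, and ranked at 28.0%, 15.3%, 15.3% and 17.1%. This is 355 to 362 bp from a start site of POLD1, a DNA polymerase subunit gene, so the peak belongs to SPIB by distance alone. Peaks at 12986 bp (ETO2-GLIS2 at 12 h, 43.1%), 12981 bp (ETO2-GLIS2 at 48 h, 18.3%) and 12970 bp (AML1-ETO at 48 h, 32.8%) lay within 1 kb of a start site of MYBPC2, a muscle gene. The summit nearest to its start in the AML1-ETO list at 48 h was at 1556 bp (71.2%). The main start site of SPIB was in no peak of any list, and its own promoters held no summit.

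IRF5 (ENSG00000128604, chr7:128577511-128590092), a mediator of inflammatory cytokine induction in macrophages, was the IRF gene with the strongest peaks. Its best peak ranked 293 (0.414%) and 974 (0.921%) for AML1-ETO at 12 h and 48 h and 134 (0.473%) and 214 (0.711%) for ETO2-GLIS2. Summits lay in exon 9, at 11260 and 11242 bp for AML1-ETO and at 10815 and 10813 bp for ETO2-GLIS2, 445 and 429 bp apart. AML1-ETO peaks there were 5116 and 8603 bp wide and ETO2-GLIS2 peaks 1646 and 2469 bp. A further region of peaks in all 4 lists covered the gene start and had its summits in intron 1, at 2752 bp (2.99%) and 2763 bp (2.17%) for AML1-ETO and at 1752 bp (10.2%) and 2347 bp (8.15%) for ETO2-GLIS2. The strongest and the second region were thus the same for both proteins, unlike at SPI1. By summit, the peak nearest to the start in the AML1-ETO list at 48 h was another one, at −2077 bp (35.6%). Windows at the best IRF5 peaks overlap untranslated exon sequence and are not printed. The ETO2-GLIS2 summit window near the start at 12 h is shown because it holds GAGGAAGT, the consensus core of PU.1-type ETS sites, read on the other strand.
IRF5 intron 1, ETO2-GLIS2 12 h, chr7:128579633-128579832, plus strand: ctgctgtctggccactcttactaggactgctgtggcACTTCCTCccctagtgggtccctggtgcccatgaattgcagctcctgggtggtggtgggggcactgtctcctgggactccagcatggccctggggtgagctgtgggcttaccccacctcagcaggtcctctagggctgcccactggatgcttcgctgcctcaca

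IRF1 (ENSG00000125347, minus strand, chr5:131776132-131844411) encodes an activator of interferon-gamma response genes. Its annotated gene body is much longer than its canonical transcript (chr5:131817301-131826465), because some annotated transcripts reach far to both sides, and peaks far from the main start are therefore counted. With 20 kb around the canonical transcript, 8 of 12, 11 of 19, 5 of 10 and 5 of 11 peaks would remain, in the order of lists used above. The best peak was the same region for 3 lists, at 24153 bp for AML1-ETO at 12 h (2.64%), 24128 bp for ETO2-GLIS2 at 12 h (2.13%) and 24133 bp for ETO2-GLIS2 at 48 h (1.77%), all inside that narrower window. AML1-ETO at 48 h also had a summit at 24133 bp (4.91%), but its best IRF1 peak lay at 64061 bp (3.45%), within 1 kb of a start site of the noncoding gene LINC02863. At 24133 bp the AML1-ETO peaks were 3327 and 3746 bp wide, and the ETO2-GLIS2 peaks 525 and 866 bp, around nearly the same base. The window is shown as the strongest IRF peak of ETO2-GLIS2 outside IRF5, with its single E-box in capitals.
IRF1 beyond the canonical transcript, ETO2-GLIS2 48 h, chr5:131802232-131802431, minus strand: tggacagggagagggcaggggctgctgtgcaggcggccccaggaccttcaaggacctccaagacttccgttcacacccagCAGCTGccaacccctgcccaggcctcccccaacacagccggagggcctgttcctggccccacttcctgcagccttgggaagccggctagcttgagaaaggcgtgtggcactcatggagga

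A further IRF1 region ranked at 5.03% and 5.99% for ETO2-GLIS2 (31512 and 31532 bp) and at 5.00% for AML1-ETO at 48 h (31519 bp), while the AML1-ETO summit of that region at 12 h lay at 33162 bp (9.23%). Near that summit ETO2-GLIS2 had further, weaker peaks, at 33134 bp at 12 h (14.4%) and 33115 bp at 48 h (10.7%). The region at −5166 bp, within 1 kb of another annotated start of IRF1, ranked better for ETO2-GLIS2 (11.5% and 4.25%) than for AML1-ETO (28.3% and 10.2%). Near the main start site of IRF1 the nearest summits lay at 202 bp (52.2%) and 638 bp (14.5%) for AML1-ETO and at 168 bp (92.9%) and 437 bp (88.1%) for ETO2-GLIS2. Every IRF1 peak in the best 10% of its list was away from the main start.

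IRF2 (ENSG00000168310, minus strand, chr4:185306856-185395712) had few ETO2-GLIS2 peaks. Its best peak lay over the gene start in every list and spanned the main start site, with summits at 1328 and −183 bp for AML1-ETO and −162 and −157 bp for ETO2-GLIS2. The AML1-ETO peaks were 3291 and 5849 bp wide and ranked at 6.31% and 4.34%. The ETO2-GLIS2 peaks were 541 and 490 bp wide and ranked at 27.7% and 21.9%. The summits at 48 h were 26 bp apart, and the AML1-ETO window is shown because it holds GAAANNGAA, the core of an interferon response element, and GGAANNGAA, the joint ETS-IRF core, in a single overlapping run.
IRF2 gene start, AML1-ETO 48 h, chr4:185395787-185395986, minus strand: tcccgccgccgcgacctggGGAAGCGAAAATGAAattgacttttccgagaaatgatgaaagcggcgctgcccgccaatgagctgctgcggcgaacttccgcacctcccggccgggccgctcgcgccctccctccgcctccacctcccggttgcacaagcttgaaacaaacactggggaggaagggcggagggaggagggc
Of 18 separate regions with a peak at IRF2, 16 had AML1-ETO alone, 7 of them at both times, and 1 region had peaks in all 4 lists. The AML1-ETO lists are longer, and no share over the genome is given for this split. Its AML1-ETO regions away from the start included summits at 56926 and 56975 bp (22.4% and 13.7%) and at 79403 and 79387 bp (14.4% and 13.0%), with no ETO2-GLIS2 peak.

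IRF4 (ENSG00000137265, chr6:391739-411443), a factor of lymphoid cells and of some dendritic cells and macrophages, had no peak in its gene body in any list. Its best peaks lay downstream, at 33317 bp (14.2%) and 32196 bp (10.7%) for AML1-ETO and at 32508 bp (8%) and 32543 bp (8.25%) for ETO2-GLIS2. The summit nearest to the main start was at −19003 bp (18.9%) for AML1-ETO at 12 h, −14302 bp (55.3%) for AML1-ETO at 48 h, and −19001 and −19029 bp (15.0% and 15.5%) for ETO2-GLIS2. The 2 ETO2-GLIS2 peaks in each list were the downstream and the upstream one, and both overlapped AML1-ETO.

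IRF7 (ENSG00000185507, minus strand, chr11:612553-615983), the main activator of type I interferon genes in plasmacytoid dendritic cells, had its best peak at 19394 and 19494 bp for AML1-ETO (6.77% and 4.15%) and at 19317 and 19491 bp for ETO2-GLIS2 (7.65% and 6.86%). The nearest start site of another named protein-coding gene, that of PHRF1, lay 5024 to 5201 bp away. The peak lay beyond the end of IRF7 and belongs to it by distance alone. AML1-ETO also had a peak at −12783 and −12673 bp (9.38% and 4.52%), 1552 and 1442 bp from the start of SCT, where ETO2-GLIS2 was weaker (best 64.6% and 54.7%). At the IRF7 start itself the nearest summits ranked at 42.8% and 13.2% for AML1-ETO and at 62.7% and 34.7% for ETO2-GLIS2. The best peaks of the region over the start ranked at 17.6% (−480 bp) and 13.2% (−924 bp) for AML1-ETO. For ETO2-GLIS2 they ranked at 37.7% (−1077 bp) and 30.8% (−1070 bp). The window at 19494 bp is shown as the best IRF7 peak and holds 2 Runt matches.
IRF7 distal, AML1-ETO 48 h, chr11:596356-596555, minus strand: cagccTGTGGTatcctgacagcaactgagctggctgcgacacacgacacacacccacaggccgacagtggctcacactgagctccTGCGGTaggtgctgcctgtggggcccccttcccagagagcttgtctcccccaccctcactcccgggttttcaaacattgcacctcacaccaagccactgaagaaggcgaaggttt

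IRF8 (ENSG00000140968, chr16:85932722-85956212) directs monocyte and dendritic cell development together with PU.1. Its best peak lay beyond the end of the gene, with summits at 29583, 29575, 29560 and 29572 bp in the 4 lists, ranked at 5.18%, 4.37%, 3.80% and 7.74%. The peaks were 4883 and 5103 bp wide for AML1-ETO and 1057 and 671 bp wide for ETO2-GLIS2 around almost the same base, as at IRF1. The window, the best IRF8 peak of ETO2-GLIS2 at 12 h, holds no match to any pattern.
IRF8 downstream, ETO2-GLIS2 12 h, chr16:85962228-85962427, plus strand: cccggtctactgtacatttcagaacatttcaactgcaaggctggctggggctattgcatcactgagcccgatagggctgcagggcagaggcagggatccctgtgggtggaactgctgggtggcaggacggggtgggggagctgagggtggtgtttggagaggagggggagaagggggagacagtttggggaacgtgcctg
A second AML1-ETO peak lay at 37128 and 37144 bp (5.42% and 4.95%), at which ETO2-GLIS2 ranked at 28.3% and 30.0%. Near the beginning of IRF8, ETO2-GLIS2 had a peak in intron 1 at 3620 and 3633 bp (19.8% and 12.6%). AML1-ETO had summits in the same region, at 3748 bp in intron 1 at 12 h (16.4%) and at 4504 bp in intron 2 at 48 h (10.7%), and the summit nearest to the start in its 48 h list was at 687 bp (70.1%). The main start site of IRF8 was in no peak of any list.

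**Figure D4:**
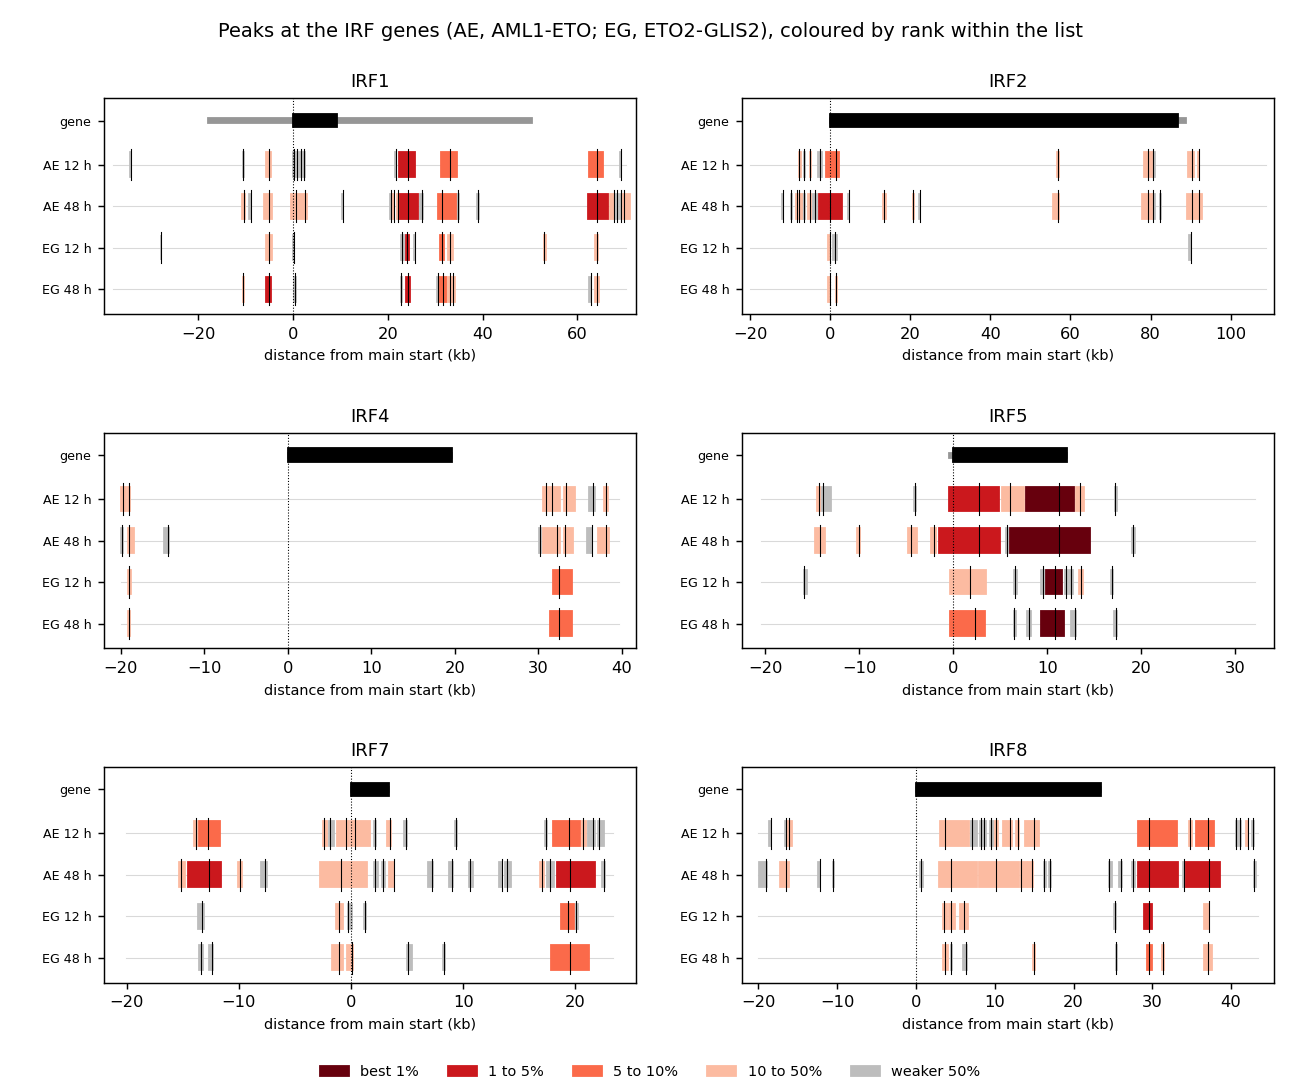
Peaks at the 6 IRF genes by distance from the main start site in kb, with 1 row per list (AE, AML1-ETO; EG, ETO2-GLIS2), the canonical transcript as a thick black bar, the rest of the annotated gene body in grey and peaks coloured by rank in percent of the list. The darkest boxes are at the end of IRF5, IRF4 has no box inside the gene, and the AML1-ETO boxes of IRF1 and IRF8 at 24133 and 29575 bp are wider than the ETO2-GLIS2 boxes at the same place.

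The main start site was inside a peak at 4, 5, 4 and 4 of the 9 genes in the lists of AML1-ETO at 12 h and 48 h and ETO2-GLIS2 at 12 h and 48 h, against 35.4%, 47.8%, 25.1% and 30.3% of protein-coding genes. SPI1, IRF2, IRF5 and IRF7 made up these counts, with IRF1 added for AML1-ETO at 48 h. A summit within 1 kb of any annotated start of the gene itself was found at 5, 5, 6 and 6 genes, against 54.1%, 59.8%, 42.8% and 45.8%. SPI1 was the gene that ETO2-GLIS2 added here. By summit, 30.5%, 29.1%, 43.8% and 37.5% of the peaks of the 9 genes lay within 1 kb of a start site of any gene, against 28.0%, 22.8%, 42.7% and 43.7% of the whole lists. The exact 95% binomial intervals of the former (20.8 to 41.6%, 20.8 to 38.5%, 29.5 to 58.8% and 24.0 to 52.6%) held the latter in each list, and these intervals cover counting error only.

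Peaks were called shared when they overlapped a peak of the other protein at the same time by at least 1 bp. Of the AML1-ETO peaks at the 9 genes, 32.9% (22.9 to 44.2%, 27 of 82) were shared at 12 h and 24.5% (16.8 to 33.7%, 27 of 110) at 48 h, against 26.2% and 17.8% of the whole lists. Of the ETO2-GLIS2 peaks, 83.3% (69.8 to 92.5%, 40 of 48) and 87.5% (74.8 to 95.3%, 42 of 48) were shared, against 74.5% and 83.4%. The intervals held the whole-list share in every list, so at this number of peaks no difference from the whole lists was detectable. At SPI1 5 of 10, 4 of 15, 7 of 9 and 8 of 10 peaks were shared.

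Sharing varied with rank, at these genes as in the whole lists. Each of the 13, 13, 10 and 12 peaks in the best 10% of its list was shared and was also found again for the same protein at the other time. In the best 10% of the whole lists 86.0%, 84.1%, 98.0% and 99.8% were shared. There 99.97%, 99.74%, 99.65% and 100% were found again, so being found again did not set these genes apart. In the weaker 50% of each list, 2 of 35, 2 of 52, 16 of 22 and 13 of 19 peaks were shared, against 6.80%, 2.88%, 57.3% and 69.5% of the weaker 50% of the whole lists. The weaker peaks of the 9 genes were narrow, with median widths of 242, 306.5, 303 and 333 bp against 3327, 5080, 1923 and 2555 bp in the best 10%. Over all peaks of the 9 genes, 84.1% (74.4 to 91.3%) of the earlier AML1-ETO peaks were found again at 48 h, and 44.5% (35.1 to 54.3%) of the later ones had been listed at 12 h. For ETO2-GLIS2 the shares were 72.9% (58.2 to 84.7%) and 70.8% (55.9 to 83.0%), and the whole lists had 73.9%, 36.8%, 60.6% and 54.6%. The whole-list share of ETO2-GLIS2 at 48 h and that of AML1-ETO at 12 h fell outside the interval of the 9 genes. Among peaks in the windows of all protein-coding genes the share was 75.0% for AML1-ETO at 12 h, inside the interval. For ETO2-GLIS2 at 48 h it was 54.8%, outside the interval.

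Joined over the 4 lists, the peaks counted for the 9 genes formed 125 separate regions. Of these, 20 (16.0%) had a peak in all 4 lists and 77 (61.6%) in 1 list, against 9.88% and 68.2% of 129875 regions over the genome. AML1-ETO alone was found in 89 regions, 20 of them at both times, ETO2-GLIS2 alone in 9, and both proteins in 27. The AML1-ETO lists are longer and no share over the genome is given for this split, so it was not read as a trait of these genes. Of the 89, 1 region at IRF1, with an AML1-ETO summit at 69807 bp at 48 h, also overlapped an ETO2-GLIS2 peak whose summit lay outside the window and which was therefore not counted. Regions in all 4 lists had a median width of 4484 bp, and those in 1 list of 299 bp. SPI1 held 3 of the 20, SPIB 1, IRF1 5, IRF2 1, IRF4 2, IRF5 2, IRF7 3 and IRF8 3.

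In 10 of the 20 regions AML1-ETO had the better rank in percent of its list at both times, in 6 ETO2-GLIS2 did, and in 4 the order changed with time. Over the genome 72.5% of 12830 such regions favoured AML1-ETO and 12.1% ETO2-GLIS2, for which the intervals of the 9 genes were 27.2 to 72.8% and 11.9 to 54.3%. Regions favouring ETO2-GLIS2 were those in intron 3 and at the start of SPI1, at 24133 and −5166 bp of IRF1 and both regions of IRF4. By rank number, which favours the shorter lists, 13 of 20 regions favoured ETO2-GLIS2 and 6 AML1-ETO (46.7% and 35.5% over the genome). The upstream region of SPI1, the region at 64061 bp of IRF1, the starts of IRF2 and IRF5, −12673 bp of IRF7 and 37144 bp of IRF8 favoured AML1-ETO by both measures.

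**Figure D5:**
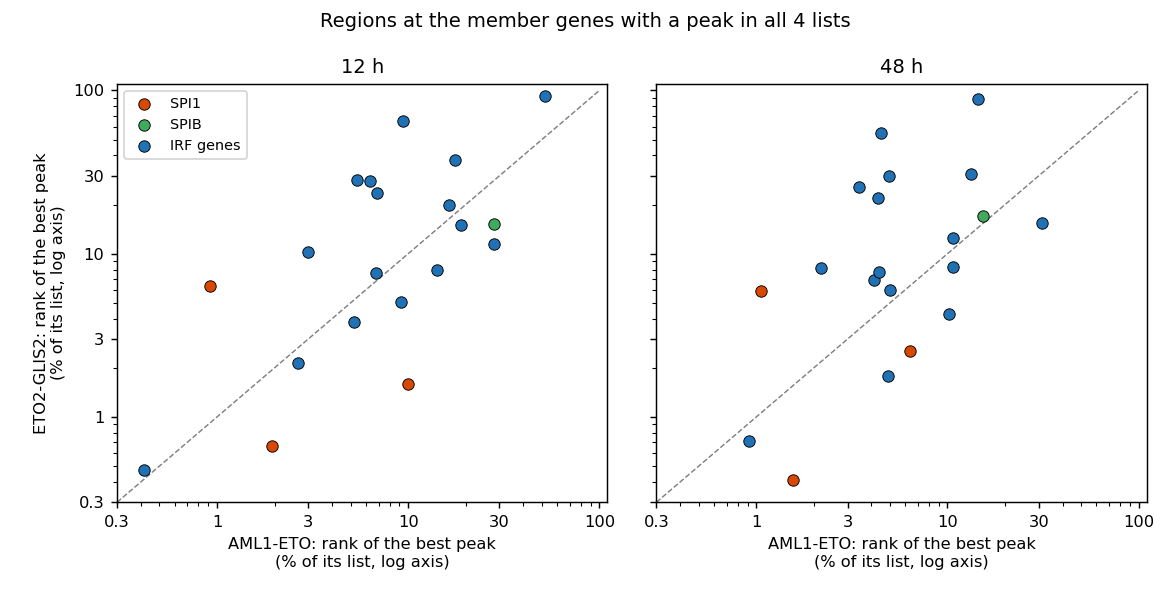
The 20 regions with a peak in all 4 lists, by the rank of the best AML1-ETO peak (horizontal) and the best ETO2-GLIS2 peak (vertical), both in percent of the list on log axes, at 12 h and 48 h. Points below the dashed line of equal percent rank better for ETO2-GLIS2: 2 of the 3 SPI1 points lie below it and the upstream region (0.920% against 6.38% at 12 h) above it.

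Within the regions the summits of the proteins were at or near the same place in some and apart in others. For AML1-ETO peaks that were shared, distances were taken to the summit of the best-ranked overlapping ETO2-GLIS2 peak. Where several peaks overlapped, another summit could lie nearer. The median was 401 bp at 12 h (1 to 1650 bp, 27 peaks) and 134 bp at 48 h (0 to 1816 bp, 27 peaks). This distance was within 200 bp for 13 and 15 of the 27. The widest such distance at 48 h was that at the start of SPI1. Between times, distances were likewise taken to the best-ranked overlapping peak of the same protein. For kept AML1-ETO peaks the median was 226 bp from the 12 h list (0 to 5214 bp, 69 peaks) and 58 bp from the 48 h list (0 to 1643 bp, 49 peaks). The 5214 bp belongs to an IRF5 peak at 6028 bp, which also overlapped a 48 h peak at 5702 bp. For ETO2-GLIS2 the medians were 28 bp (35 peaks) and 27.5 bp (34 peaks).

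Motif patterns were searched on both strands in 200 bp windows centred on the summits: TGTGGT or TGCGGT (Runt), TGGGGGG (GLIS core), GAGGAAGT (PU.1-type ETS), CCGGAAGT (ETS), GAAANNGAA (IRF core), GGAANNGAA (ETS-IRF core) and CAGCTG (E-box), where the ETS-IRF core can overlap the IRF core and the ETS patterns. A Runt match lay in 18.3%, 21.8%, 20.8% and 27.1% of the windows at the 9 genes, against 26.7%, 24.9%, 23.2% and 21.9% of the whole lists. PU.1-type ETS matches lay in 7.32%, 3.64%, 10.4% and 6.25% (2.41%, 2.07%, 4.00% and 3.35% of the lists), and IRF cores in 7.32%, 4.55%, 8.33% and 4.17% (5.15%, 5.12%, 4.76% and 4.09%). GLIS cores lay in 3.66%, 8.18%, 8.33% and 12.5% (4.23%, 3.83%, 7.72% and 7.89%). None of these shares was taken as a property of the genes by itself, since each rests on at most 24 windows. E-boxes lay in 12.2%, 17.3%, 16.7% and 16.7% (14.0%, 13.7%, 16.3% and 16.8%) and ETS-IRF cores in 4.88%, 5.45%, 6.25% and 4.17% (5.06%, 4.91%, 5.61% and 5.07%). The ETS pattern was found in 1 of 48 windows of ETO2-GLIS2 at 12 h and in 0 of 82, 0 of 110 and 0 of 48 windows of the other lists, for which the intervals reached 4.40%, 3.30% and 7.40%. Of 28 shares, the intervals of 27 held the share of the whole list, the exception being PU.1-type ETS for AML1-ETO at 12 h (6 of 82 windows, interval 2.73 to 15.2%). Overlapping peaks of different lists share sequence, so the 4 lists are not separate evidence. A match is a description of the sequence and not a site of binding.

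A list of 17 other genes of the pathway (IRF3, IRF9, BATF, BATF3, IKZF1, STAT2, EGR1, EGR2, GFI1 and KLF4, and the PU.1 target genes CSF1R, CSF2RA, CSF3R, ITGAM, CD14, LYZ and FCGR1A) was set beside the 9. All 17 had a peak in each of the 4 lists. A peak in the best 5% lay at 5, 10, 5 and 2 of the 17, and in the best 1% at 1, 2, 0 and 0, so none reached the best 1% in every list as IRF5 did. Their median best rank was 8.51%, 4.49%, 17.4% and 11.7%, against 5.75%, 4.24%, 5.72% and 7.30% for the 8 PU.1 and IRF genes with a peak and 11.2%, 6.78%, 23.1% and 19.9% for all protein-coding genes with a peak. The medians of the PU.1 and IRF genes and of the other genes lay closest in the AML1-ETO list at 48 h and furthest apart for ETO2-GLIS2 at 12 h.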

How the data were processed

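ChIP-seq peaks of the HA-tagged fusion proteins AML1-ETO and ETO2-GLIS2, induced in clones of U937, were analysed, with 1 ChIP library per protein and time. Per the labels the authors used Bowtie2 2.2.9, SAMtools 1.7, MACS2 2.1.1.20160309 and deepTools, on hg19. Settings of the peak caller and removal of duplicates or artefact regions are not given in the sources used here. The deposited narrowPeak files hold, for each peak, coordinates, a score (not used), a fold enrichment ratio, −log10 p, −log10 q and a summit offset, all made by the authors with MACS2. The smallest deposited −log10 q was 1.30964, 1.30214, 1.3056 and 1.30552 in the lists of AML1-ETO at 12 h and 48 h and ETO2-GLIS2 at 12 h and 48 h. Read counts per peak were not used here, so no count model was fitted.

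Peaks were assigned to GENCODE release 44 genes on GRCh37 (summit in the gene body or within 20 kb), ranked by −log10 q and overlapped with Python 3.11.15, numpy 2.4.6, pandas 2.3.3, scipy 1.17.1 and matplotlib 3.10.9. The overlap and ranking code was tested on simulated peaks. Intervals are exact (Clopper-Pearson) 95% binomial intervals, cover counting error only and treat peaks as independent, which neighbouring peaks are not. The 9 genes, the pathway list and the patterns were chosen with earlier results of these data known. Some items of the pathway list and of the sequences are not reported here, and counts over that list were made without them. All 9 genes were named. For each, the best peak, the peak nearest to the main start site and peaks in the best 5% were described, and other pathway genes were to be given values only if in the best 1% in all 4 lists. Alternatives varied the window, overlap, promoter size, −log10 q, list length, peak joining, ranking column and motif window. For the 12 h samples the titles give 12 h and a protocol label 48 h, and the titles were used.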

Additional observations from a re-analysis of the deposited data

Results flagged for a closer look

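For some genes the change from 12 h to 48 h had opposite signs for the proteins. Each rests on 1 library per condition, and the difference was not tested. Values are 48 h minus 12 h. The best rank is in percent of its list, and the AML1-ETO list grew from 70833 to 105769 peaks, so its sign does not by itself show a stronger or weaker peak. For SPI1 the best rank changed by 0.140 percentage points for AML1-ETO and by −0.259 for ETO2-GLIS2 (rank 652 to 1122 and 189 to 123), while the −log10 q of that peak rose for both, from 202 to 248 and from 465 to 513. For IRF1 the changes were 0.805 and −0.358 (rank 1873 to 3648 and 604 to 534). The best AML1-ETO peak of IRF1 was not the same at both times, lying at 24153 bp at 12 h and at 64061 bp at 48 h. Within these regions the AML1-ETO rank went from 1873 to 5196 and from 4869 to 3648. For SPIB the changes were −12.7 and 1.81 (rank 19810 to 16180 and 4320 to 5134). For IRF4 they were −3.50 and 0.250, and for IRF8 −0.812 and 3.94. By rank number both proteins moved the same way at IRF4 (10044 to 11296 and 2266 to 2483) and at IRF8 (3669 to 4620 and 1075 to 2328). The fold enrichment of the best IRF8 peak went from 20.7 to 23.8 for AML1-ETO and from 40.4 to 27.2 for ETO2-GLIS2. The signs thus depend on the measure, and the part of list length was not tested. The number of peaks changed by 6 and −1 at SPIB, by 8 and −1 at IRF2 and by −1 and 2 at IRF8, again in lists of different length.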

How the results depend on the processing

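With 1 library per condition no replicate could be left out. No paired analysis was possible because each condition had 1 library and no result comes from a test between conditions. Of 196 alternative values for 56 results, 134 moved by less than the interval or stayed within 1.5 times the count, and 62 moved further. Among the 196, 56 came from an unplanned setting that changes the window of IRF1 alone. Of these 56, 55 counted as unmoved, so the total of 134 leans on that setting. Values follow for AML1-ETO at 12 h and 48 h and ETO2-GLIS2 at 12 h and 48 h, or for the lists named. With an overlap of at least 50% of the peak, the AML1-ETO peaks shared were 19.5% and 8.18% and those kept between times 72.0% and 29.1%. With summits within 200 bp, 18.3%, 14.5%, 31.2% and 33.3% were shared and 39.0%, 29.1%, 50% and 50% kept. Promoter peaks numbered 9, 15, 11 and 10 when counted at gene starts only and 49, 65, 34 and 32 within 3 kb. At −log10 q of at least 5 the first 3 lists held 42, 45 and 30 peaks, and AML1-ETO had 50% and 51.1% shared and 95.2% and 64.4% kept. At −log10 q of at least 10 the lists held 28, 32, 23 and 25 peaks, and AML1-ETO had 60.7% and 59.4% shared. In gene bodies alone the lists held 31, 40, 20 and 23 peaks, ETO2-GLIS2 had 95% and 95.7% shared, and the median best rank was 10.7% for AML1-ETO at 48 h and 10.9% for ETO2-GLIS2 at 12 h. A 50 kb window gave 128 and 191 AML1-ETO peaks. With each list cut to its strongest 28325 peaks, AML1-ETO had 36 and 33 peaks and 66.7% and 66.7% shared. With peaks within 1 kb joined, the first 3 lists held 39, 56 and 31 peaks, and AML1-ETO had 51.3% and 37.5% shared. In 100 bp windows Runt matches lay in 13.6%, 10.4% and 12.5% of the last 3 lists, ETS-IRF cores in 1.82% (AML1-ETO at 48 h) and 0% (ETO2-GLIS2 at 48 h), E-boxes in 10% (AML1-ETO at 48 h), ETS in 0% and IRF cores in 2.08% (both ETO2-GLIS2 at 12 h) and GLIS cores in 4.17% (ETO2-GLIS2 at 48 h). An IRF1 window around its canonical transcript, chosen after seeing the data, gave E-boxes in 7.14% of ETO2-GLIS2 windows at 48 h. Ranking by fold enrichment kept all 4 median best ranks within their limits. The cause of these shifts was not tested beyond what each setting removes or adds.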
